A study of Homo sapiens with 6 samples.

Results

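The genes described here encode 8 enzymes of cholesterol synthesis, HMGCS1, IDI1, FDPS, FDFT1, SQLE, LSS, CYP51A1 and DHCR7. They were found by gene name in a pair of deposited tables of RNA level per gene, and all 8 had 1 identifier in each table, out of 17721 identifiers in either. The series studied U2OS, a human osteosarcoma cell line in long use. Its labels gave 4 groups: RNA pulled down with an NSun2 mutant from cells with DNMT1 knocked down (shDNMT1, 2 samples), the same pull-down from shNC cells, whose genotype is given as WT (2 samples), input RNA of shDNMT1 cells (1 sample) and input RNA of shNC cells (1 sample). NSun2 methylates cytosine in RNA and DNMT1 maintains cytosine methylation in DNA. The protocol repeated for every sample states that an NSun2 mutant plasmid was introduced, naming the recipients as U6 and shDNMT1 cells, and the sources used here do not state whether the knockdown line was 1 clone.

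Neither table carried the name of a sample, so no value is tied to the knockdown, to its control or to the pull-down. The tables are called by the number of genes they list, the longer one with 16824 and the shorter one with 15167, and 14270 identifiers stood in both. Levels are in FPKM, fragments scaled by transcript length and by all mapped fragments, which allows levels of different genes to be compared. Whether a level is that of input or of pulled-down RNA is not known. A gene called abundant below is therefore one with a high FPKM, which may not be its expression in the cells. Differences are log2((FPKM in the longer table + 1)/(FPKM in the shorter table + 1)), so a positive value means a higher level in the longer table. There was 1 value per gene and table, without replicates, so nothing below was tested and each difference describes this pair of tables only. In RNA from many cells, a change in the number of cells that express a gene and a change in RNA per cell cannot be told apart.

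Cholesterol is built from acetyl units. HMGCS1 makes the precursor of mevalonate, IDI1 and FDPS turn the activated isoprene units that follow into farnesyl diphosphate, FDFT1 joins a pair of these into squalene, SQLE and LSS oxidise and close squalene into lanosterol, and CYP51A1 and DHCR7 act on the way from lanosterol to cholesterol. Most genes of the pathway are textbook targets of the sterol regulatory element-binding proteins (SREBPs), transcription factors that are released from the endoplasmic reticulum when membranes are poor in sterol. Farnesyl diphosphate is also the branch point to ubiquinone, dolichol and the lipid anchors of many membrane-bound proteins.

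The pair of genes named in the series title differed between the tables. DNMT1 was listed at 9.36 FPKM in the longer table and 23.3 FPKM in the shorter one, and NSUN2 at 1147 and 559 FPKM. These values were not used to give a table a condition. Of 9 osteoblast and bone matrix markers, 5 were listed in the longer table and 2 in the shorter, with ALPL the highest at 38.0 and 78.4 FPKM, while SP7, COL1A2, IBSP and SPP1 had no row in either. The 4 mesenchymal markers summed to 435 FPKM in the longer table and 274 FPKM in the shorter one. VIM made up most of this at 407 and 262 FPKM, CDH2 had 16.2 and 7.41 FPKM, FN1 had 11.7 and 4.84 FPKM, and THY1 was near the floor at 0.032 and 0.080 FPKM. The 4 epithelial markers summed to 2607 and 2900 FPKM, nearly all of it from the keratins KRT8, at 1410 and 1597 FPKM, and KRT18, at 1196 and 1293 FPKM. The other epithelial markers were far lower, CDH1 at 0.39 FPKM in the longer table and 8.42 FPKM in the shorter one, and EPCAM at 0.55 and 2.20 FPKM. The part of these marker differences in the values below was not tested. None of the 4 hepatocyte markers, from the tissue best known for cholesterol synthesis, was listed in either table.

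The 8 genes covered a wide range of levels and no gene differed by 2-fold between the tables. HMGCS1, IDI1, SQLE and CYP51A1 were 1.38- to 1.73-fold higher (plain ratio of FPKM) in the longer table, FDFT1 and FDPS lay close to equality, and LSS and DHCR7 were lower. The early gene HMGCS1 was listed at 49.6 FPKM in the longer table and 28.6 FPKM in the shorter one, a log2 ratio of 0.77 and the highest of the 8. IDI1, the isomerase that makes the reactive isoprene unit, had 6.72 and 4.11 FPKM and a log2 ratio of 0.60. It was the lowest in level of the 8 in each table.

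FDPS, which condenses isoprene units into farnesyl diphosphate, had the highest level, with 161 FPKM in the longer table and 169 FPKM in the shorter one (log2 ratio -0.07). FDFT1, the squalene synthase that commits carbon to sterols, came next with 135 and 126 FPKM (log2 ratio 0.09). These consecutive enzymes therefore had high FPKM and were nearly level between the tables. SQLE, the squalene monooxygenase, a flux-controlling step, was listed at 32.4 FPKM in the longer table and 23.2 FPKM in the shorter one, a log2 ratio of 0.46. LSS, the cyclase that follows it, had 40.1 and 44.5 FPKM (log2 ratio -0.15). SQLE was thus higher and LSS lower in the longer table, although they catalyse neighbouring steps.

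CYP51A1, the cytochrome P450 that removes a methyl group from lanosterol, was listed at 25.5 FPKM in the longer table and 18.5 FPKM in the shorter one, with a log2 ratio of 0.44. DHCR7, a reductase of the last steps, had 72.0 and 90.9 FPKM. Its log2 ratio of -0.33 was the lowest of the 8.

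**Figure D1:**
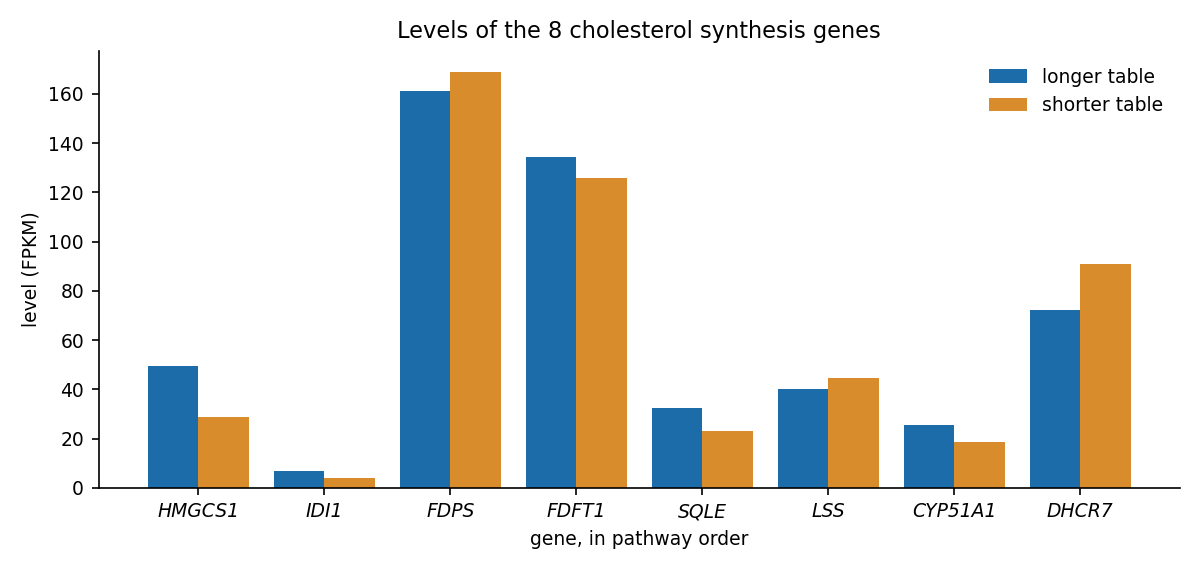
Level of each of the 8 genes in FPKM (vertical axis, from 0), in pathway order, in the longer table (left bar of each pair) and the shorter table (right bar), with 1 value per bar and no error. FDPS (161 and 169 FPKM) and FDFT1 (135 and 126 FPKM) have the tallest pairs and IDI1 (6.72 and 4.11 FPKM) the lowest.

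Read against all genes, the differences were modest. Among the 11416 genes in both tables with a mean of at least 1 FPKM, 2.4% were at least 2-fold higher in the longer table and 1.82% at least 2-fold lower, against 0 of the 8 genes in each direction. Higher by any amount were 5 of the 8, beside 57.5% of these genes, and lower were 3, beside 42.5%. The median log2 ratio of the 8 was 0.27, against 0.09 over the 11416 genes. HMGCS1 had a higher log2 ratio than 93.3% of these genes, IDI1 than 86.7%, SQLE than 79.6% and CYP51A1 than 78.2%. At the other end, DHCR7 exceeded 18.3% of them. The 5 positive and 3 negative signs were the same under every scaling, pseudocount and summing tried. This was mostly fixed beforehand, since no pseudocount can change a sign and each of the 8 had 1 identifier to sum. The scalings tried also shifted log2 ratios by less than the smallest of the 8 in size, -0.07 for FDPS. Among the settings tried, only summing all genes of a locus could have changed a sign. Scaling to the full totals, 541559 FPKM in the longer table and 578013 FPKM in the shorter one, was not tried. It could change the sign of FDPS, so that sign depends on the scaling chosen.

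**Figure D2:**
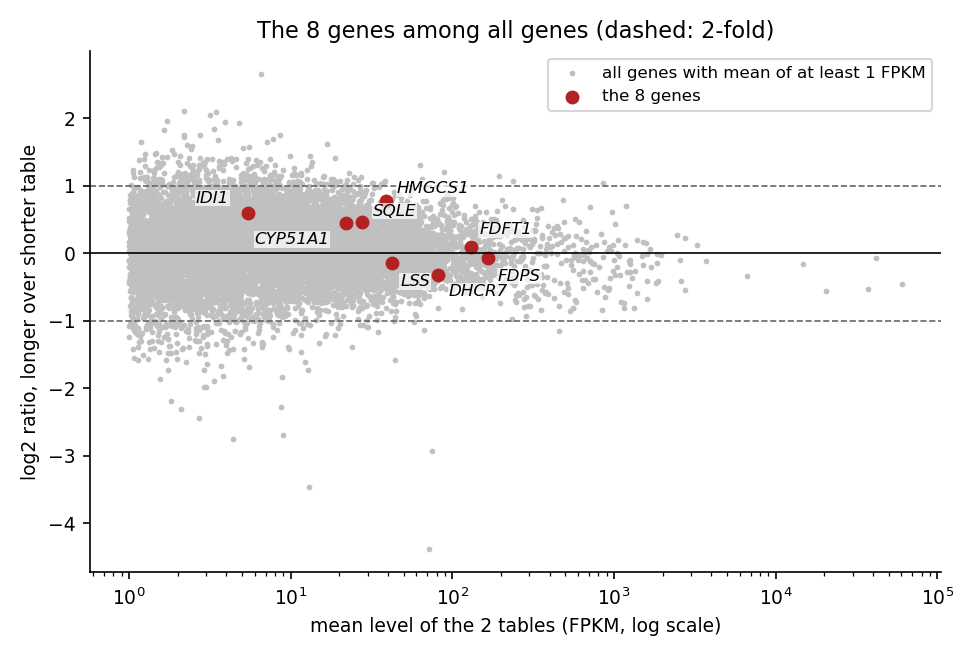
Log2 ratio of the longer over the shorter table (vertical axis) against mean level in FPKM (horizontal axis, log scale) for the 11416 genes with a mean of at least 1 FPKM (grey) and the 8 cholesterol synthesis genes (red), with dashed lines at 2-fold. All 8 lie between the dashed lines, from -0.33 for DHCR7 to 0.77 for HMGCS1.

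Summed over the 8 genes, the level was 522 FPKM in the longer table and 505 FPKM in the shorter one, a log2 ratio of 0.05. The tables had unequal totals, 541559 FPKM in the longer and 578013 FPKM in the shorter. As a share of these, the 8 genes made up 0.0964% in the longer table and 0.0874% in the shorter one. Levels of the steps relative to each other differed, though the 8 log2 ratios exceeded no fewer than 18.3% (DHCR7) and no more than 93.3% (HMGCS1) of the 11416 genes. Such a balance was not computed for other sets of genes. The spread between the most and the least abundant gene was 24.0-fold in the longer table and 41.1-fold in the shorter one. It rests on FDPS and IDI1 alone. HMGCS1 stood at 1.24 times the level of LSS in the longer table and at 0.64 times in the shorter one, so the order of these genes was exchanged. SQLE had 0.81 times the level of LSS in the longer table and 0.52 times in the shorter one. CYP51A1 had 0.35 times the level of DHCR7 in the longer table, against 0.20 times in the shorter one. By level, FDPS, FDFT1 and DHCR7 came first, in that order, whichever table was read. In the longer table HMGCS1, LSS, SQLE, CYP51A1 and IDI1 followed, and in the shorter one LSS, HMGCS1, SQLE, CYP51A1 and IDI1. With 1 value per table, whether neighbours in this order differ beyond experimental spread was not measured.

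Promoter sequences were examined because the 8 genes, higher or lower, are usually described as under common control by SREBPs, which bind together with the factors NF-Y and Sp1. RefSeq windows (GRCh38.p14) of 250 bases before to 50 after the start site were used for 6 of the 8 genes. These were HMGCS1, IDI1, FDPS, LSS, CYP51A1 and DHCR7, each matched by symbol. The following 3 are shown as the gene with the highest ratio (HMGCS1, chr5:43313363-43313662, minus strand), the gene with the lowest (DHCR7, chr11:71448344-71448643, minus strand) and the most abundant gene (FDPS, chr1:155308616-155308915, plus strand). Each is written 5′ to 3′ on the strand of the gene. Capitals mark the NF-Y motif CCAAT, or its reverse ATTGG, and matches on either strand to TCACNCNA, a loose form of the sterol regulatory element.
HMGCS1: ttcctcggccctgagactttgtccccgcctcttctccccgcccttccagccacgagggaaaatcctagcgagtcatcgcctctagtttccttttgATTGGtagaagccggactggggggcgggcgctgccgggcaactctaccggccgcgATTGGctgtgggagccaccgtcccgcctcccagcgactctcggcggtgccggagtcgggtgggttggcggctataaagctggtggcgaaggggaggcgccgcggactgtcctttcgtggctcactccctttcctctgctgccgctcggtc
DHCR7: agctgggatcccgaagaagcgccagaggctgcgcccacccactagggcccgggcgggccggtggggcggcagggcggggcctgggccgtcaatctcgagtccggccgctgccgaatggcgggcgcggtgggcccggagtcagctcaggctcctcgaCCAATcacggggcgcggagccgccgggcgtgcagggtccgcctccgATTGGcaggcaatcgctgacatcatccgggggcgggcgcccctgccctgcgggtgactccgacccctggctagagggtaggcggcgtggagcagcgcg
FDPS: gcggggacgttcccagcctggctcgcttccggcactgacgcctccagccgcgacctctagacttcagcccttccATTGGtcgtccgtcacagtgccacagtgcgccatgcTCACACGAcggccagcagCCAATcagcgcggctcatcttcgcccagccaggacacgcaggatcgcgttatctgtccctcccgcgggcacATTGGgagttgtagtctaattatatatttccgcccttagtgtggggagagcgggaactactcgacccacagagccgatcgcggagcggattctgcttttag
In these windows the capitals did not overlap between the motifs.

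A CCAAT box was found in 5 of the 6 windows and in 34.6% of the 35116 windows of all genes. The 6 are 1 window per gene, although HMGCS1 had 2 windows, IDI1 3 and DHCR7 2, and the others were not searched for the counts below. The 35116 hold every window of every gene, whether or not the gene had a level here, so the shares are not like for like. HMGCS1 had 2, at 155 and 100 bases before the start site, DHCR7 had 2, at 94 and 48 bases before it, and FDPS had 3. IDI1 (chr10:1048837-1049136, minus strand) also had 3, of which one forward and one reverse copy overlapped in a palindrome, and LSS had 1. The window of CYP51A1 held none of these letters. FDPS had the single match to TCACNCNA, TCACACGA, at 140 bases before the start site and on the gene's own strand, a form present in 9.06% of all windows. The GC box GGGCGG, the motif of Sp1, was in 6 of 6 windows on either strand, beside 45.0% of all windows. LSS had 7 copies, DHCR7 4, IDI1 3, HMGCS1 2, and FDPS and CYP51A1 1 each. The share of G and C was 75% in DHCR7, 74.7% in LSS, 71.3% in IDI1, 65.7% in HMGCS1, 63.7% in CYP51A1 and 61% in FDPS, against a median of 58.7% over all windows. CCAAT boxes were thus present both in genes that were higher and in genes that were lower in the longer table, and letter matches of this kind say nothing about binding in these cells.

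Overlapping genes could share fragments at several of these loci (hg38 as the deposited tables give them, counted from 1). SQLE (chromosome 8, 124998497 to 125022283; ENSG00000104549) and LSS (chromosome 21, 46185079 to 46228824; ENSG00000160285) were alone at theirs. IDI1 (chromosome 10, 971146 to 1049170; ENSG00000067064) shared a merged locus with GTPBP4, a GTPase of ribosome assembly listed at 7.86 FPKM in the longer table and 4.72 FPKM in the shorter one. The log2 ratio of GTPBP4 was 0.63, next to 0.60 for IDI1, and how fragments were divided between them was not tested. The third gene there, RP11-363N22.3, had 0.33 and 0.56 FPKM. FDPS (chromosome 1, 155308748 to 155331114; ENSG00000160752) lay in a locus with RUSC1, at 38.1 and 51.4 FPKM, and RUSC1-AS1, at 1.51 and 1.17 FPKM.

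The partners at the other loci reached 0.35 FPKM at most. They were CTD-2636A23.2 for HMGCS1 (chromosome 5, 43287601 to 43313512; ENSG00000112972), RP11-297N6.4 for FDFT1 (chromosome 8, 11795573 to 11839309; ENSG00000079459), LRRD1 for CYP51A1 (chromosome 7, 92112151 to 92180725; ENSG00000001630) and RP11-660L16.2 for DHCR7 (chromosome 11, 71428193 to 71452868; ENSG00000172893). Of these 4, 3 stood in the longer table alone. With all genes of a locus summed, each of the 8 log2 ratios moved by less than 0.1.

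Genes near the 8 on the chromosome were examined because ratios between these tables varied with position. The number of genes within 1 Mb and the log2 ratio had a Spearman correlation of -0.29 over the 11416 genes. Between a gene's log2 ratio and the median log2 ratio of its neighbours it was 0.27, over the 9710 genes with at least 5 neighbours. Neighbours share position and genes are not replicates, so both values are descriptions. HMGCS1 was higher in the longer table although its 9 neighbours within 1 Mb had a median log2 ratio of -0.22. SQLE and CYP51A1, at 0.46 and 0.44, also stood above their 9 neighbours each, whose medians were -0.03 and -0.01. DHCR7, at -0.33, lay below the median of -0.11 of its 11 neighbours, and FDPS, at -0.07, close to the -0.04 of its 51. LSS, at -0.15, and FDFT1, at 0.09, also lay below their neighbours, with medians of 0.05 over 14 and 0.20 over 6. IDI1 had 3 neighbours, with a median of 0.18. The part of chromosome position in the ratios was not tested.

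**Figure D3:**
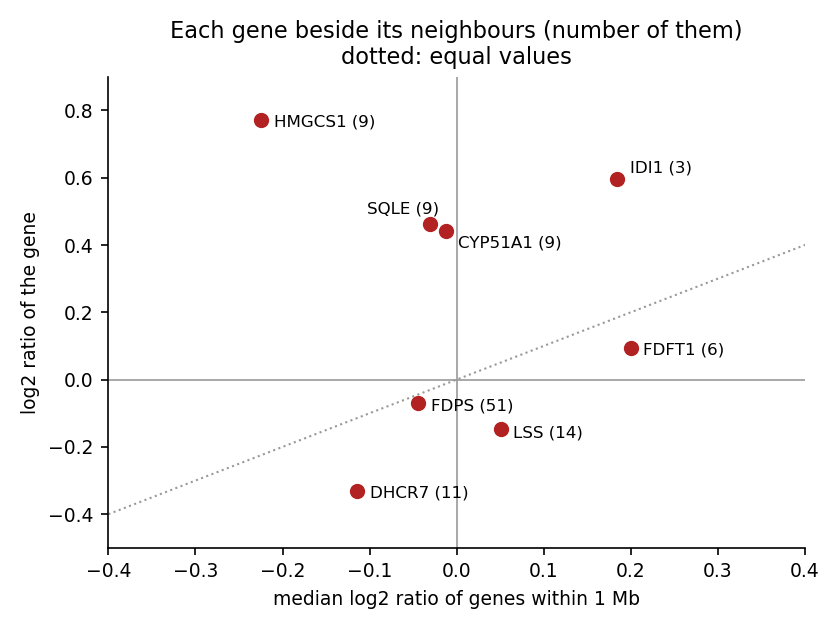
Log2 ratio of each of the 8 genes (vertical axis) against the median log2 ratio of the other genes that start within 1 Mb (horizontal axis), with the number of those genes in parentheses and a dotted line at equal values. HMGCS1, IDI1, SQLE and CYP51A1 lie above the line.

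Of the enzymes outside the 8 on the sterol synthesis list, 6 were higher and 6 lower in the longer table, with a median log2 ratio of -0.03. The list counts GGPS1 among the lower ones (log2 ratio -0.42), although it makes geranylgeranyl diphosphate and is not a step to sterols. Of 21 enzymes on that list, the 8 included, 20 had a value in each table. Of these, 11 were higher in the longer table and 9 lower, close to the 54.8% higher and 45.2% lower over all 14270 genes. Their median log2 ratio was 0.10, against 0.05 over all genes. One of the 20 was at least 2-fold higher and 0 at least 2-fold lower, beside 2.04% and 1.68% of all genes. All 20 had a mean of at least 1 FPKM. Of the 11416 such genes, used above for the 8, 57.5% were higher and 42.5% lower, with a median log2 ratio of 0.09. At least 2-fold higher were 2.4% of them, and at least 2-fold lower 1.82%. The lists below are set beside the 14270 genes, which include genes with a mean under 1 FPKM.

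By stretch of the pathway the counts were as follows, to be read beside 54.8% higher and 45.2% lower over all genes and with no test between stretches. In the mevalonate stretch, which leads to farnesyl and geranylgeranyl diphosphate, HMGCS1 and IDI1 were higher and the other 6 of 8 lower, with a median of -0.24. The kinase MVK had 14.2 FPKM in the longer table and 24.8 FPKM in the shorter one (log2 ratio -0.76) and shared its locus with MMAB, at 15.2 and 21.6 FPKM. The decarboxylase MVD, alone at its locus, had 21.5 and 31.4 FPKM (log2 ratio -0.52). HMGCS1 and MVD, steps of one short stretch, thus stood on opposite sides of equality.

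After lanosterol, 7 of 9 enzymes were higher in the longer table and 2 were lower, with a median of 0.35. The methyl sterol monooxygenase MSMO1 had 16.3 FPKM in the longer table and 10.7 FPKM in the shorter one (log2 ratio 0.57). EBP, a sterol isomerase, was the most abundant of the listed enzymes at 307 and 287 FPKM (log2 ratio 0.10).

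The same reaction, the reduction of the sterol ring after demethylation by CYP51A1, is catalysed by LBR and by TM7SF2, and these differed in opposite directions. LBR, which is also a receptor for lamin B in the nuclear envelope, was listed at 32.7 FPKM in the longer table and 15.6 FPKM in the shorter one. Its log2 ratio of 1.02 was the one past 2-fold, and it became 0.97 after centring. TM7SF2 had 3.12 and 4.84 FPKM (log2 ratio -0.50), at a locus shared with VPS51 and ZFPL1, which were also lower in the longer table, at log2 ratios of -0.43 and -0.57.

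**Figure D4:**
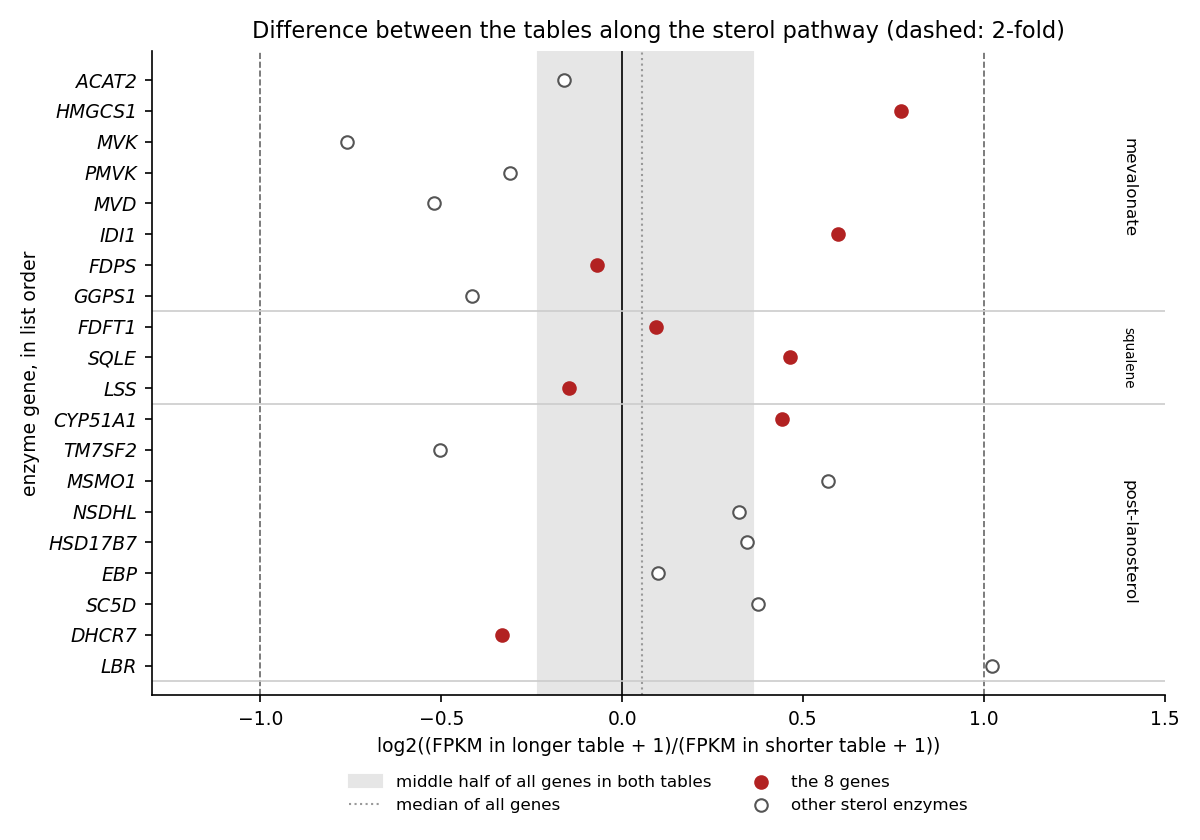
Log2 ratio of the longer over the shorter table (horizontal axis) for 20 enzymes of the sterol synthesis list, GGPS1 included, in list order (vertical axis). The 8 genes are red and the others open circles, with dashed lines at 2-fold and a band for the interquartile range of all genes, -0.23 to 0.36. In the mevalonate stretch HMGCS1 and IDI1 lie right of 0 and the other 6 left of it, and among the enzymes after lanosterol TM7SF2 and DHCR7 lie left of 0.

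Of 11 SREBP control genes, 8 were higher in the longer table and 3 lower, beside 54.8% and 45.2% of all genes, with a median log2 ratio of 0.16 against 0.05. The highest ratios were 0.65 for C12orf49, a regulator of SREBP processing, with 12.04 FPKM in the longer table and 7.32 FPKM in the shorter one, and 0.61 for RNF139, a ubiquitin ligase of the endoplasmic reticulum, with 10.4 and 6.47 FPKM. SREBF2, which encodes the SREBP mainly tied to cholesterol synthesis, had 44.6 FPKM in the longer table and 43.3 FPKM in the shorter one (log2 ratio 0.04, and -0.01 after centring). SREBF1, whose products favour fatty acid genes, had 43.9 and 74.2 FPKM, a log2 ratio of -0.75, at a locus shared with RAI1, at 12.7 and 18.2 FPKM. SCAP, the escort protein that senses sterol, had 48.6 and 66.8 FPKM (log2 ratio -0.45). INSIG1, which retains SCAP in the endoplasmic reticulum and is itself an SREBP target, had 20.0 FPKM in the longer table and 28.3 FPKM in the shorter one, a log2 ratio of -0.48. INSIG1 and HMGCS1 therefore differed in opposite directions.

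Genes of sterol uptake and lysosomal release numbered 10, of which 6 were higher in the longer table and 4 lower, near the 54.8% and 45.2% of all genes, with a median log2 ratio of 0.03 that turned to -0.02 after centring. SCARB1, a receptor for high-density lipoprotein, was the most abundant at 98.3 and 100.1 FPKM (log2 ratio -0.03, and 0.01 with equal totals). STARD4, a sterol transfer protein, had 8.61 and 5.29 FPKM and a log2 ratio of 0.61, at a locus with NREP, at 1.79 FPKM in the longer table and 5.83 FPKM in the shorter one. Of 6 genes of efflux, storage and oxysterol control in both tables, 3 were higher and 3 lower, again beside 54.8% and 45.2%, with a median of 0.01 that turned to -0.05 after centring. NCEH1, a hydrolase that releases cholesterol from its stored esters, was alone past 2-fold in that list, beside 2.04% of all genes, with 15.2 FPKM in the longer table and 5.76 FPKM in the shorter one (log2 ratio 1.26). ABCA1, the main cholesterol exporter, was listed in the longer table alone, at 0.22 FPKM.

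**Figure D5:**
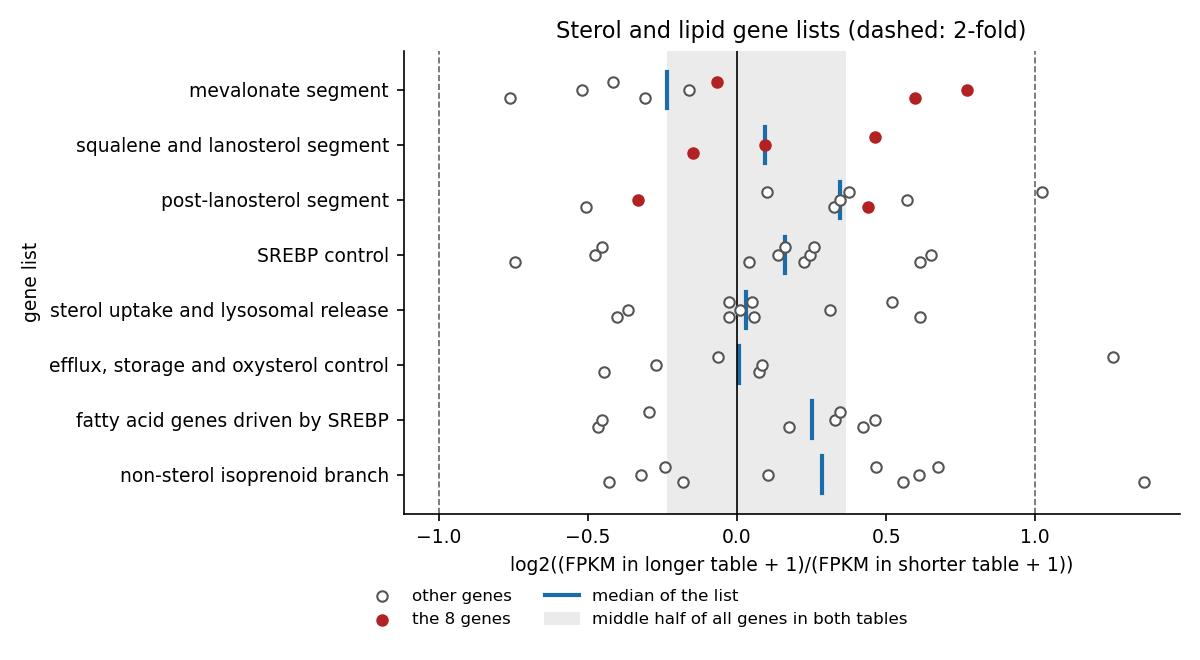
Log2 ratio of the longer over the shorter table (horizontal axis) for every gene in both tables of 8 sterol and lipid lists (vertical axis), with the 8 cholesterol synthesis genes in red, a bar at each list's median, dashed lines at 2-fold and a band for the interquartile range of all genes. LBR at 1.02, NCEH1 at 1.26 and PGGT1B at 1.37 are the points past 2-fold.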

How the data were processed

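The deposited values were FPKM per gene, per the file headers, which the authors scaled to transcript length and to mapped fragments, in a pair of tables with gene identifier, name and locus. Which tool made them, and whether a table pools libraries, no source used here states. Tools named without a role in the submitters' processing notes are cutadapt 1.12, BWA 0.7.13 and MACS 1.4.2, with the build hg38. Since FPKM values are scaled to all mapped fragments, a few abundant RNAs can move all others. This scaling did not give the tables equal sums of FPKM, which were 541559 in the longer and 578013 in the shorter.

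Levels were compared as log2((longer + 1)/(shorter + 1)), with a pseudocount of 1 FPKM, which understates differences of low genes. A limma test between pull-downs was designed but not run, as no value could be tied to a sample. The background was the 14270 genes with 2 values, or the 11416 with a mean of at least 1 FPKM. The calculation was checked on simulated data with changes well past 2-fold and a small spread. That checks the arithmetic only and says nothing about the reliability of the 2-fold counts. Alternatives were other pseudocounts, scalings, filters on level and locus, and sums over names or loci.

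The members and lists were chosen with earlier results of these data known. Named were the 8 genes, genes sharing their loci, list genes differing by 2-fold and otherwise the most abundant gene of a list. MVK, MVD, MSMO1, EBP, TM7SF2, SREBF2, SCAP, INSIG1, C12orf49, RNF139, STARD4, ABCA1, SCD, the FADS genes and RABGGTB, with genes sharing their loci, were added after their values were seen. GGPS1 was also added then, for its place in the pathway. No ranking of genes by likeness was made, since 2 values give no pattern. Some genes of the pathway are not reported here. Promoter windows came from RefSeq, taking the first listed whose start site lay in the deposited locus. FDFT1 and SQLE were left out of the promoter search, so its motif counts say nothing about them.

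Deposited starts were taken as counted from 0: with 1 added, 1824 of 7877 genes alone at their locus had the RefSeq start, against 148 without. Absolute depth is unknown. Of 2354 genes under 1 FPKM in each table, the commonest plain log2 ratios lay near -1.08 (129 genes), -0.08 (119 genes) and 0.48 (69 genes). If such a peak is 1 fragment against 1, the longer table is 2.11, 1.06 or 0.72 times as deep in that order, so relative depth was not settled. Python 3.11.15, pandas 2.3.3, numpy 2.4.6, scipy 1.17.1 and matplotlib 3.10.9 were used.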

Additional observations from a re-analysis of the deposited data

How the results depend on the processing

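No paired analysis was possible because no value carries a sample or replicate name. The replicate block planned as an alternative for the pull-downs was not run for the same reason. Without replicates, a log2 value was counted as moved when it changed by 0.1 or crossed 2-fold, and a count of genes when it changed by more than 1.5 times. Of 162 recomputed values 144 stayed within this and 18 moved. Many could not move, so the tally does not measure stability. Centring and equal totals shift a log2 value by less than 0.1, so they could count only by crossing 2-fold. Sums by name left the 8 genes unchanged. No difference of 2-fold changed sign, which none of the settings applied to such differences could have brought about. IDI1, the lowest of the 8 genes in level, had a log2 ratio of 0.70 with a pseudocount of 0.1 and 0.71 with none, larger by construction. Where no locus is shared, and lists are shorter, the median became -0.42 for the mevalonate stretch, 0.33 for all sterol enzymes, 0.16 for the 8 genes (SQLE and LSS alone) and 0.11 for the isoprenoid branch. The 274 genes at least 2-fold higher and the 208 lower became 58 and 31 when the mean had to reach 10 FPKM and 157 and 106 at unshared loci, since fewer genes entered. With a pseudocount of 0.1, which enlarges every ratio, they became 661 and 453. Centring lowers every ratio by 0.05, and equal totals without abundant noncoding RNAs raise it by at most 0.035. The median of efflux genes turned to -0.06 with a pseudocount of 0.1, and that of uptake genes to -0.03 at unshared loci. Precision cannot be given for any value, since neither depth nor replicates are known.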

Other observations

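Fatty acid genes that SREBPs also drive divided into 5 higher and 3 lower in the longer table of 8, beside 54.8% higher and 45.2% lower over all genes, with a median log2 ratio of 0.25 against 0.05. FASN, the fatty acid synthase, was the most abundant at 252 FPKM in the longer table and 349 FPKM in the shorter one, a log2 ratio of -0.47. SCD, the desaturase that makes oleate, had 145 and 115 FPKM (log2 ratio 0.33). FADS1 and FADS2, desaturases of polyunsaturated fatty acids, share a locus and differed in opposite directions, with 44.4 FPKM in the longer table and 32.9 FPKM in the shorter one for FADS1, and 15.0 and 18.6 FPKM for FADS2.

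In the branches that use the products of IDI1 and FDPS for other lipids, 6 of 10 genes were higher in the longer table and 4 lower, near the shares of all genes, 54.8% and 45.2%, with a median log2 ratio of 0.29 against 0.05. PGGT1B, the beta subunit of a protein prenyltransferase, was the one at least 2-fold higher, beside 2.04% of all genes. It was listed at 6.72 FPKM in the longer table and 1.99 FPKM in the shorter one, a log2 ratio of 1.37. RABGGTB, the beta subunit of the enzyme that modifies RAB proteins, had 32.9 and 44.6 FPKM (log2 ratio -0.43) at a locus shared with ACADM.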
